A study of Mus musculus with 6 samples.

Results

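The methionine and folate one-carbon enzymes are a set of 9 genes, Ahcy, Mat2a, Mat2b, Mtr, Mtrr, Cbs, Shmt1, Shmt2 and Mthfd1. They were gathered by function, and Ahcy had been noted beforehand as higher in ethanol in these same arrays. Each gene was represented by the array row that named it alone, and where several rows did so by the one with the highest mean over all arrays. In this way 8 of the 9 were measured, among 22180 genes on the array with a row of their own. Mat2a, the catalytic subunit partner of Mat2b, was named by no row in the annotation used and is not analysed here.

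The tissue was labelled whole hippocampus of male C57BL/6J mice, an inbred strain, and came from pups injected under the skin on postnatal days 4 and 7, with 2 injections 2 hours apart on each day. The ethanol group received ethanol at 2.5 g/kg, dissolved in NaCl at 0.15 M, and the saline group received saline, both groups being of that same strain. Each of the 6 whole-transcript arrays, 3 ethanol and 3 saline, held RNA pooled from 3 mice of 18 in all, so the spread between arrays is that between pools. The sample characteristics give an age of 21 days, whereas the treatment protocol gives 70 days. All values are log2 expression values as deposited, and 1 unit is a doubling. Different probes bind with different strength, so differences are taken for 1 gene across arrays. Levels of different genes are set side by side only as a rough guide, for tissue markers and for brightness.

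One-carbon metabolism moves single carbon groups between serine, folate and methionine. The methionine cycle makes S-adenosylmethionine, the methyl donor for DNA, RNA, histones and many small molecules, and the by-product S-adenosylhomocysteine must be cleared because it inhibits methyltransferases. Folate enzymes supply the methyl group that turns homocysteine back into methionine, and they also feed the synthesis of purines and thymidylate. The pathway is often studied after alcohol exposure because ethanol and acetaldehyde are known to disturb folate handling and methionine synthase.

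The labelled tissue was checked against marker genes. Of 10 markers of hippocampal pyramidal and granule cells all were measured, and the median of the list lay between 6.98 and 7.02 on ethanol arrays and between 7.11 and 7.21 on saline arrays. Of 10 markers of cerebellar neurons 8 were measured, with list medians between 11.86 and 11.92 on ethanol arrays and between 11.72 and 11.77 on saline arrays. Gabra6, which marks granule cells of the cerebellum, stood at 12.22, 12.31 and 12.12 on ethanol arrays and 12.03, 12.21 and 12.16 on saline arrays, in a row brighter than 99.6% of rows. Neurod6, a transcription factor of telencephalic pyramidal neurons, stood at 6.62, 6.72 and 6.71 on ethanol arrays and 6.66, 6.96 and 6.87 on saline arrays, in a row brighter than 53.5% of rows. Over the lists, the cerebellar rows were brighter than 78.3% (Neurod1) to 99.7% (Car8) of rows and the hippocampal rows than 45.2% (Emx1) to 99.6% (Calb1, which Purkinje cells of the cerebellum also express). Cerebellar markers were thus read in tissue labelled hippocampus, and since rows differ in how well their probes bind, the lists give no proportion of tissues. Both list medians separated the groups, the hippocampal one lower and the cerebellar one higher on every ethanol array. Such a median follows the few genes of middle level in a list. By gene, 6 hippocampal differences were negative and 4 positive (median -0.01). Only in Fibcd1 was every ethanol array below every saline array, beside 4.72% of all genes. Of the 8 cerebellar differences 7 were positive (median 0.08). In 3 every ethanol array was above every saline array, beside 5.74% of all genes. Among 10 equal bins of all genes by brightness, the median difference rose from -0.02 in bin 4 to 0.08 in bin 10, the brightest. The part of these markers in the values below was not tested. The list medians of neuron, oligodendrocyte, microglia, endothelial and choroid plexus markers overlapped between the groups, and of 4 red blood cell markers 0 were measured. In pooled tissue, fewer cells of a type and less RNA per cell cannot be told apart.

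The comparison of ethanol with saline asks whether ethanol in the first postnatal week left a difference in these transcripts weeks later. All of the measured members lay within a narrow band. The log2 difference was 0.27 for Ahcy and between -0.04 and 0.14 for the 7 other members, and the groups overlapped in all of those 7. Overlap was the common case, as only 5.74% of all genes had every ethanol array above every saline array and 4.72% below. In a limma fit over all 41345 rows no row passed an adjusted p under 0.05, which is 0% of rows, and so 0 of the 8 members did. The lowest adjusted p of any row was 0.857, as it was for Mtrr and Ahcy. Without adjustment, 2290 rows (5.54%) had a p under 0.05, and by gene 705 of 22180 (3.18%), of which 1.2% of all genes were higher and 1.98% lower in ethanol. Ahcy alone, 1 of 8 members, met that looser level on the higher side and 0 on the lower. Since Ahcy was picked from this comparison its count is a description. Leaving out any 1 of the ethanol arrays or saline array 3 made the count of members 0. Without saline array 1 the count stayed at 1, but Ahcy missed that level and Shmt2 met it.

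**Figure D1:**
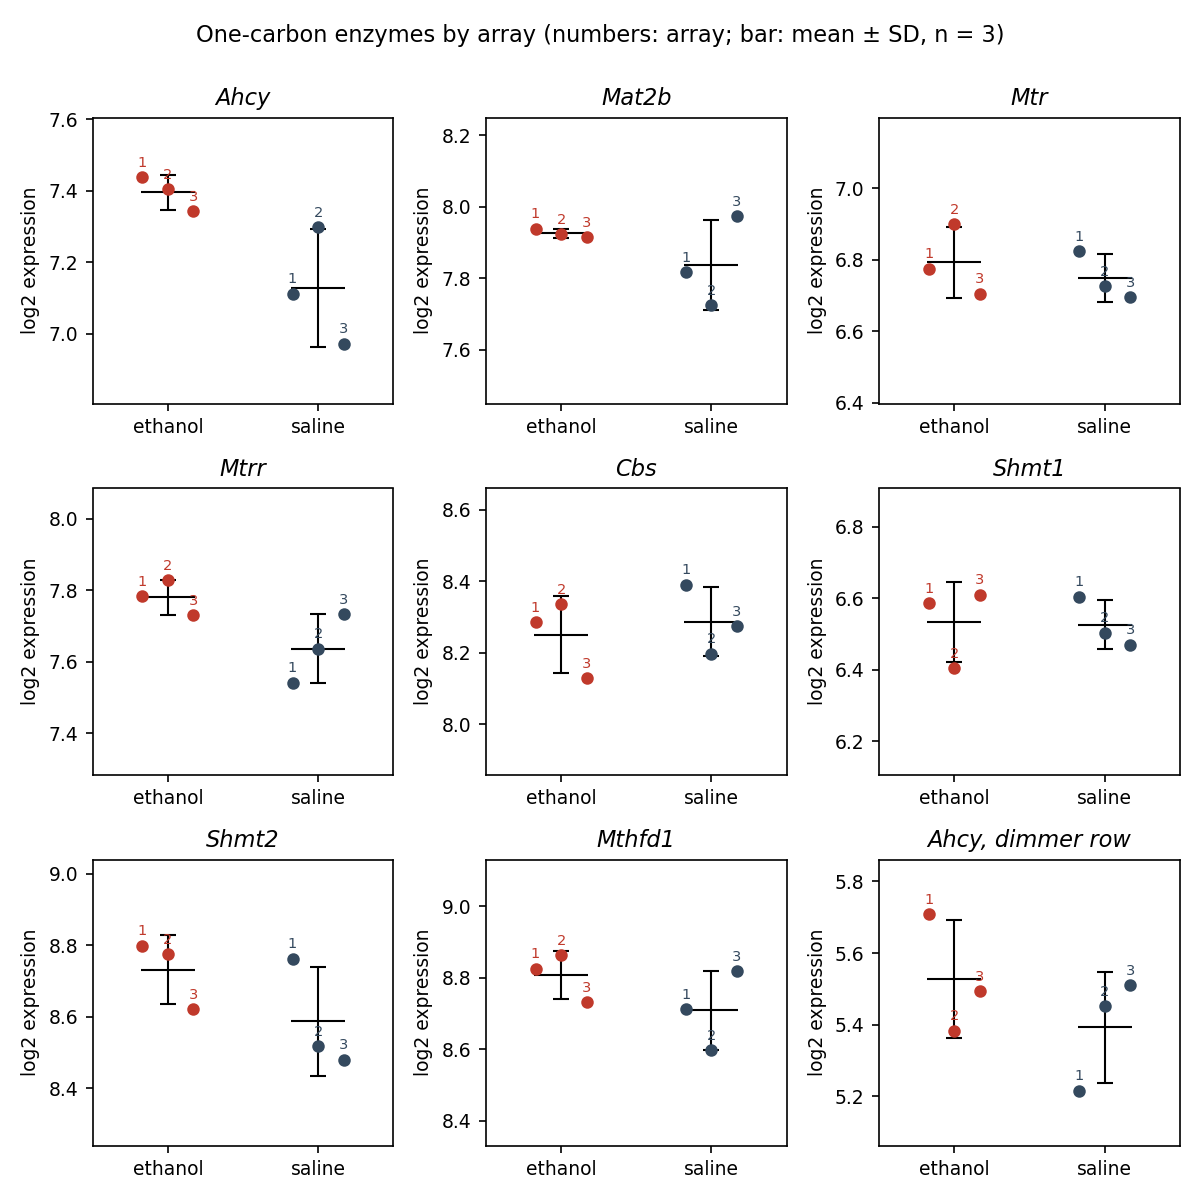
Log2 expression of each measured member on each array, ethanol left and saline right, with points numbered by array and bars giving the mean ± SD of 3 arrays. Each panel spans the same height in log2 units, and only for Ahcy do all ethanol points, at 7.34 to 7.44, lie above all saline points, at 6.97 to 7.30; the last panel shows the dimmer Ahcy row, where they overlap.

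Ahcy encodes S-adenosylhomocysteine hydrolase, which splits S-adenosylhomocysteine into adenosine and homocysteine. Its representing row stood at 7.44, 7.40 and 7.34 on ethanol arrays 1 to 3 and at 7.11, 7.30 and 6.97 on saline arrays 1 to 3. Every ethanol array was above every saline array, though saline array 2 came within a small step of ethanol array 3. Means were 7.40 ± 0.05 in ethanol and 7.13 ± 0.16 in saline (SD, n = 3), a log2 difference of 0.27 ± 0.10 (SE), or 1.20-fold. The saline arrays differed among themselves more than the ethanol arrays did. Over all genes, every ethanol array lay above every saline array in 5.74%, and below in 4.72%. With 3 arrays in each group, an exact permutation test cannot give a two-sided p below 0.1.

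A second row also named Ahcy, and it did not separate the groups. It stood at 5.71, 5.38 and 5.49 on ethanol arrays and at 5.21, 5.45 and 5.51 on saline arrays, a log2 difference of 0.14 ± 0.12 (SE, 3 arrays against 3). Saline array 3 was the lowest of all arrays in the first row and the highest saline array in the second. The Pearson correlation of the 2 rows over the 6 arrays was 0.39. With the second row in place of the first, 0 members had an unadjusted p under 0.05.

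The rows also sit in different places in the order of row numbers, which otherwise follows the chromosomes. Ahcy lies on chromosome 2 from 155059310 to 155074497 (mouse build GRCm38). For the brighter row, numbered 17330769, all of the 10 nearest rows with a located gene, 5 on each side, named genes of chromosome 16 and 0 named genes of chromosome 2. For the dimmer row, numbered 17393207, all 10 neighbours named genes of chromosome 2. The representing rows of the 7 other members had 9 or 10 of 10 neighbours on the chromosome of their own gene. Of 23328 rows with a located gene, 172 or 0.737% had no neighbour on that gene's chromosome. The probe sequences of these rows were not analysed here, so which transcript the brighter row binds was not tested, and its value is uncertain as a measure of Ahcy.

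Mat2b is the regulatory subunit of methionine adenosyltransferase II, the enzyme that makes S-adenosylmethionine outside the liver. It stood at 7.94, 7.92 and 7.91 on ethanol arrays and at 7.82, 7.72 and 7.97 on saline arrays. The ethanol arrays were nearly level and lay inside the saline range, with saline array 3 the highest of all. Mat2b differed by 0.09 ± 0.09 on the log2 scale (SE, 3 arrays against 3), with a 95% interval of the fit from -0.12 to 0.29. It was 0.03 without saline array 2 and 0.15 without saline array 3. Mat1a, the catalytic subunit known mainly from liver, stood at 6.39, 6.40 and 6.40 on ethanol arrays and at 6.61, 6.64 and 6.37 on saline arrays, and these also overlapped.

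Mtr is methionine synthase, which methylates homocysteine with a methyl group from folate, and Mtrr is the reductase that reactivates its cobalamin cofactor. Mtr stood at 6.78, 6.90 and 6.70 on ethanol arrays and at 6.82, 6.73 and 6.70 on saline arrays, with no separation. Mtrr stood at 7.78, 7.83 and 7.73 on ethanol arrays and at 7.54, 7.64 and 7.73 on saline arrays. Ethanol array 3 and saline array 3 were level to the second decimal, and the other saline arrays lay below all ethanol arrays. The log2 difference was 0.04 ± 0.08 for Mtr and 0.14 ± 0.08 for Mtrr (SE, 3 arrays against 3), with 95% intervals from -0.16 to 0.25 and from -0.05 to 0.34. Both genes lie on chromosome 13, Mtr from 12181331 to 12258199 and Mtrr from 68560780 to 68582169. Neither was called (limma adjusted p = 0.942 and 0.857).

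Cbs is cystathionine beta-synthase, which draws homocysteine out of the cycle toward cysteine and is known in brain chiefly from astrocytes and Bergmann glia. It stood at 8.29, 8.34 and 8.13 on ethanol arrays and at 8.39, 8.20 and 8.28 on saline arrays, and the groups overlapped throughout. For Cbs this was a log2 difference of -0.04 ± 0.09 (SE, 3 arrays against 3; limma adjusted p = 0.953), with an interval from -0.26 to 0.18. Cbs lies on chromosome 17 from 31612623 to 31637233. It was the 1 member with a negative difference, and the sign turned to positive with arrays centred on their medians. The 12 astrocyte and Bergmann glia markers had 11 positive differences with a median of 0.09. Of all genes, 85.0% were positive in bin 9 and 92.8% in bin 10 of the 10 brightness bins. The list medians of the astrocyte and Bergmann glia markers overlapped, at 9.97 to 10.19 on ethanol arrays and 9.91 to 10.10 on saline arrays. In 2 of the 12, the water channel gene Aqp4 (0.26 ± 0.07) and Hopx (0.20 ± 0.07), every ethanol array lay above every saline array, beside 5.74% of all genes, and their part in the member values was not tested. Cth, the next enzyme toward cysteine, stood at 6.13, 6.16 and 6.07 on ethanol arrays and at 5.97, 6.06 and 6.13 on saline arrays.

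Shmt1 and Shmt2 are the cytosolic and mitochondrial serine hydroxymethyltransferases, which take a carbon unit from serine onto folate. Shmt1 stood at 6.59, 6.40 and 6.61 on ethanol arrays and at 6.60, 6.50 and 6.47 on saline arrays. Its values crossed freely, with a log2 difference of 0.01 ± 0.09 (SE, 3 arrays against 3) and an interval from -0.20 to 0.22. Shmt2 stood at 8.80, 8.77 and 8.62 on ethanol arrays and at 8.76, 8.52 and 8.48 on saline arrays. Here saline array 1 lay among the ethanol arrays, and the other saline arrays were the lowest. The log2 difference of Shmt2 was 0.14 ± 0.10 (SE, 3 arrays against 3; limma adjusted p = 0.864), with an interval from -0.10 to 0.39. Without saline array 1 it was 0.23 and without saline array 3 it was 0.09. Shmt1 lies on chromosome 11 from 60788897 to 60811265 and Shmt2 on chromosome 10 from 127517123 to 127522444.

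Mthfd1 is the cytosolic enzyme with 3 activities that interconvert folate-bound carbon units. It stood at 8.83, 8.86 and 8.73 on ethanol arrays and at 8.71, 8.60 and 8.82 on saline arrays. Saline array 3 was level with the higher ethanol arrays and saline array 2 was the lowest. The log2 difference was 0.10 ± 0.09 (SE, 3 arrays against 3; limma adjusted p = 0.878), with an interval from -0.11 to 0.30. Leaving out saline array 2 made it 0.04 and leaving out saline array 3 made it 0.15. Its mitochondrial relatives Mthfd2, Mthfd2l and Mthfd1l differed by 0.17 ± 0.11, -0.03 ± 0.10 and 0.02 ± 0.08 (SE, 3 arrays against 3), and their groups overlapped too.

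**Figure D2:**
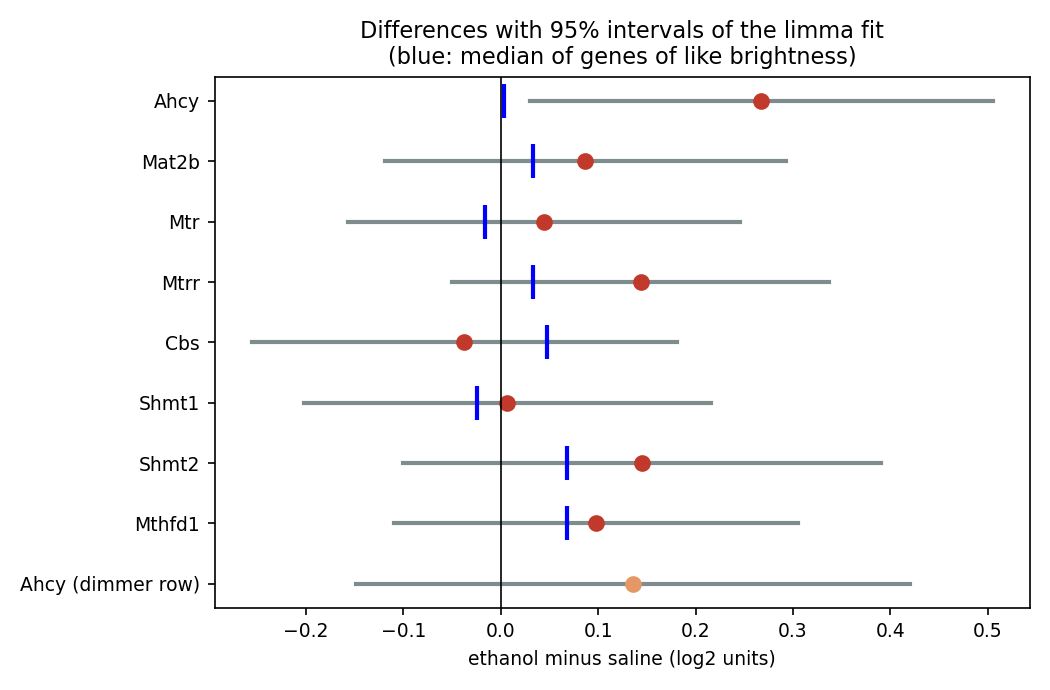
Log2 difference, ethanol minus saline, of each measured member (points) with the 95% interval of the limma fit (grey lines), not adjusted for the number of rows, and the median difference of genes in the same brightness bin (blue marks). The intervals of the 7 members other than Ahcy all include 0, and that of Ahcy runs from 0.03 to 0.51 for its brighter row and from -0.15 to 0.42 for the dimmer one.

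Positive differences were common among the brighter genes and less so among the dimmer ones, and the members spanned both. Of the 8 members 7 had a positive difference, with a median of 0.09, and over all genes 57.2% were positive with a median of 0.02. The share depended on brightness. Among 10 equal bins of genes by mean level, 85.0% of genes were positive in the bin that holds Shmt2 and Mthfd1 (median 0.07) and 75.2% in the bin of Cbs (median 0.05). It was 64.3% in the bin of Mat2b and Mtrr, 51.2% in that of Ahcy, 42.8% in that of Mtr and 40.1% in that of Shmt1. Averaged over the members, the share in their bins was 63.5%. Set against the median of their own bin, 7 of 8 members lay above it and Cbs below it, at -0.08. By construction, a bin holds as many genes above its median as below it. Both counts of 7 include Ahcy, which was picked from this comparison, so they are descriptions. Ahcy lay 0.26 above its bin median, Mtrr 0.11, Shmt2 0.08, Mtr 0.06, Mat2b 0.05, and Shmt1 and Mthfd1 0.03 each.

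**Figure D3:**
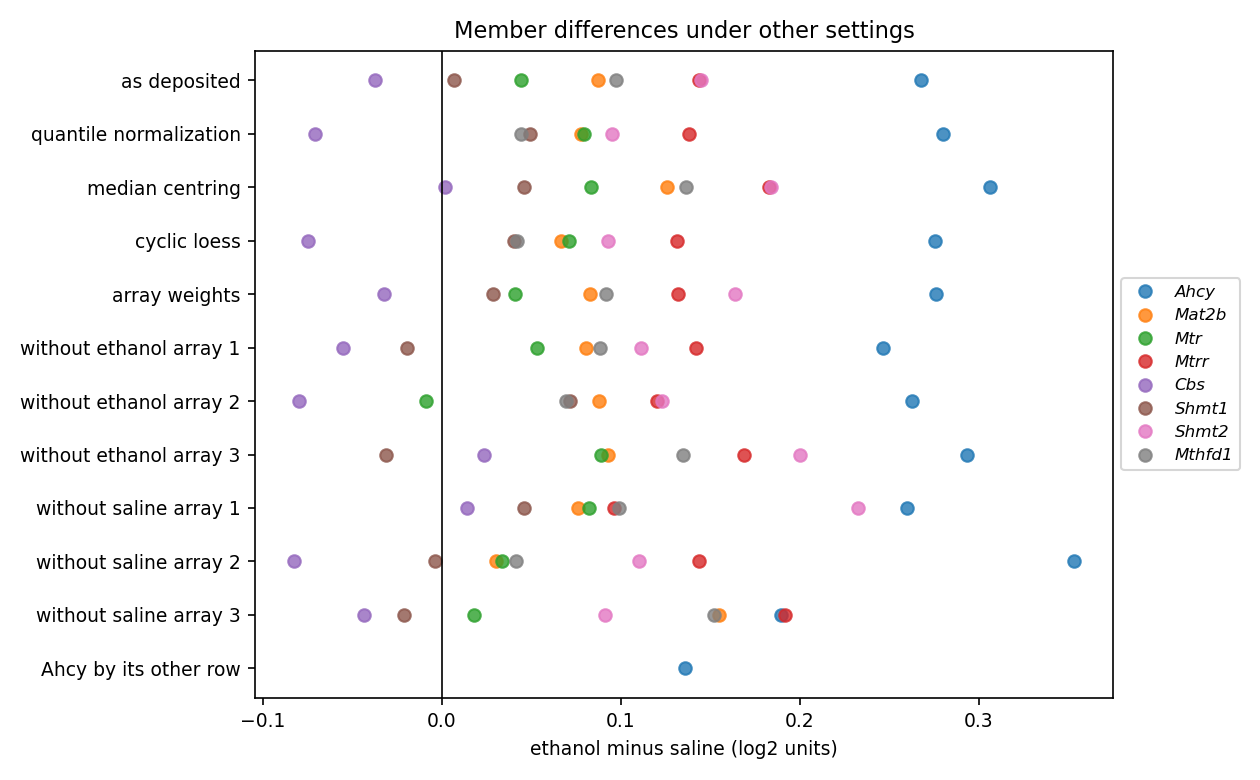
Log2 difference, ethanol minus saline, of each measured member (colours) with the values as deposited, under other scalings and weights, without each array in turn, and with the dimmer row for Ahcy. Ahcy lies between 0.19 and 0.35 in every setting that uses its brighter row, and Cbs, Shmt1 and Mtr are the members that cross 0.

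The members did not vary as 1 block across the arrays. Over the 28 pairs of members, Pearson's r across the 6 arrays ran from -0.48 for Mtrr and Shmt1 to 0.90 for Mat2b and Mthfd1, with a median of 0.16 and 19 pairs above 0. Mat2b and Mthfd1 shared the order of the saline arrays, lowest in array 2 and highest in array 3. Next came Mtr and Shmt2 at 0.78, Mtrr and Mthfd1 at 0.74, and Mtr and Cbs, which compete for homocysteine, at 0.73. Mtr and its reductase Mtrr stood at 0.16. These are descriptions of 6 arrays that share scaling and brightness effects.

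The genes most like Ahcy were sought among 11089 other genes brighter than the median gene. Closest over the 6 arrays were the olfactory receptor gene Olfr525 (r = 0.99), Maml3, a Notch coactivator (r = 0.99), Prpf6, a splicing factor (r = 0.98), the predicted gene Gm20091 (r = 0.97) and the pseudogene Tmem229b-ps (r = 0.96). In Olfr525, as in Ahcy, saline array 3 was the lowest and saline array 2 the nearest to the ethanol arrays, with 8.46, 8.45 and 8.35 on ethanol arrays and 8.17, 8.33 and 8.09 on saline arrays. A correlation of at least 0.9 was reached by 48 of the 11089 genes. These genes were picked for following the brighter Ahcy row, which was itself picked for its difference. The shared order of arrays therefore follows from the choice and is a description.

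The rest of the pathway was described by 5 lists of genes by function, 63 genes listed and 57 measured. Of these 40 were positive and 17 negative, with a median of 0.07. Over all genes 57.2% were positive, and the share depended on brightness, from 37.4% in bin 2 to 92.8% in bin 10. The lists were not matched to other genes by brightness. At an unadjusted p under 0.05 there were 0 of 57, where the share over all genes was 3.18%, and 0 had an adjusted p under 0.05 in limma. The smallest unadjusted p were those of Nnmt, Sardh, Bhmt and Slc19a1, between 0.0662 and 0.0697. Every ethanol array lay above every saline array in 5 of 57, namely Aldh1l2, Sardh, Srm, Psat1 and Lmbrd1, beside 5.74% of all genes. These 8 genes, Sardh being on both counts, were picked after their values were seen.

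Genes of the folate cycle and folate uptake, 19 measured, had 15 positive differences and a median of 0.11. Slc19a1, the reduced folate carrier, stood at 6.80, 6.66 and 6.76 on ethanol arrays and at 6.69, 6.51 and 6.37 on saline arrays. Saline array 1 overlapped with the ethanol arrays and the other saline arrays lay below them. The log2 difference was 0.22 ± 0.10 (SE, 3 arrays against 3; limma adjusted p = 0.857). Aldh1l2, the mitochondrial formyl-folate dehydrogenase, differed by 0.11 ± 0.08.

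Genes of the methionine cycle, transsulfuration and betaine use, 15 measured, had 7 positive and 8 negative differences with a median of -0.02. Bhmt, which remethylates homocysteine with betaine in place of folate, stood at 5.15, 5.06 and 5.13 on ethanol arrays and at 5.51, 5.53 and 5.11 on saline arrays. Saline array 3 lay among the ethanol arrays. The log2 difference was -0.27 ± 0.12 (SE, 3 arrays against 3; limma adjusted p = 0.857), in a row brighter than only 24.1% of rows. Nnmt, a nicotinamide methyltransferase that uses S-adenosylmethionine, differed by 0.21 ± 0.09, and Sardh, which turns sarcosine into glycine, by 0.16 ± 0.08. The Ahcy-like genes Ahcyl1 and Ahcyl2 differed by 0.02 ± 0.10 and 0.01 ± 0.08, and Gnmt, a glycine methyltransferase, by -0.06 ± 0.08.

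The 3 remaining lists held small, mostly positive differences, in rows with mean levels from 7.39 to 10.37. In the brightness bins with mean levels from 7.32 to 10.13, 51.2% to 92.8% of all genes were positive. The median differences of those bins ran from 0.003 to 0.085. Methionine salvage and polyamine genes, 7 measured, had 5 positive with a median of 0.10, led by the spermidine synthase Srm at 0.15 ± 0.08. Serine synthesis and glycine cleavage genes, also 7 measured, had 6 positive with a median of 0.09, and Psat1, an aminotransferase of serine synthesis, differed by 0.13 ± 0.07. Cobalamin handling genes, 9 measured, had 7 positive with a median of 0.08. Among them the lysosomal cobalamin exporter Lmbrd1 differed by 0.15 ± 0.08, Mmachc, which processes cobalamin for methionine synthase, by 0.17 ± 0.12, and its partner Mmadhc by 0.07 ± 0.15. None was called by limma at an adjusted p under 0.05.

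**Figure D4:**
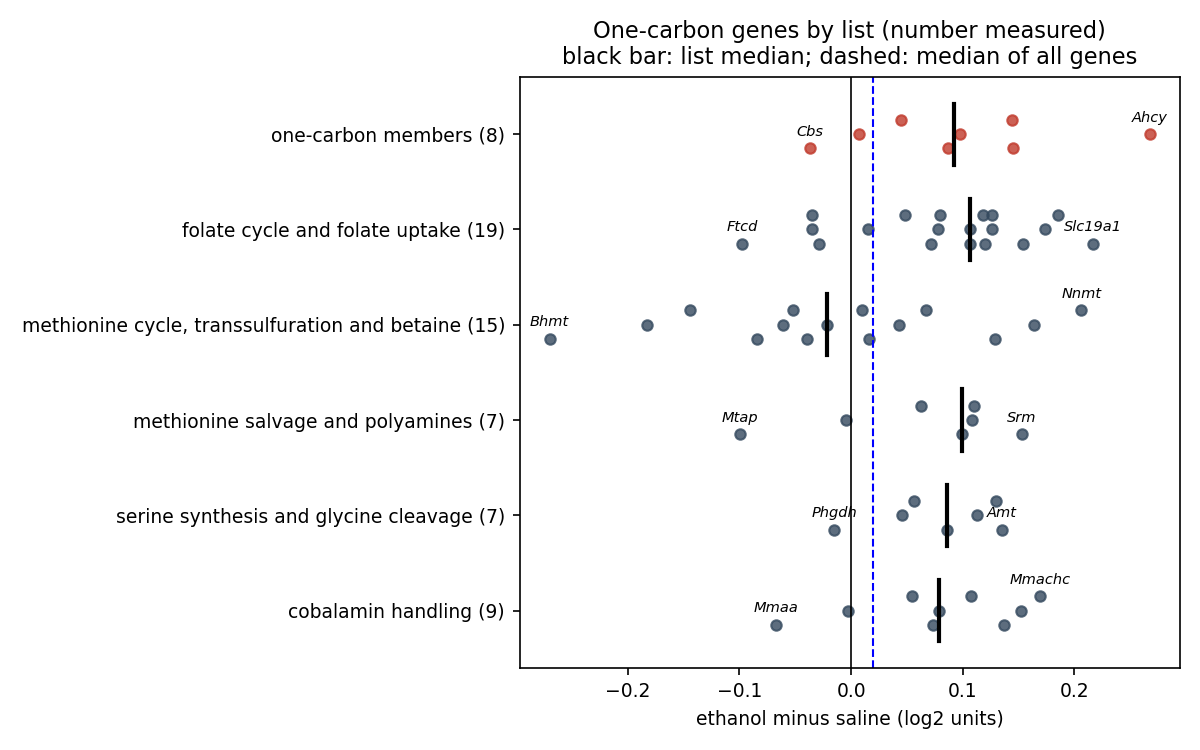
Log2 difference, ethanol minus saline, of each measured gene (points) in the members and in 5 other one-carbon lists, with the list median (black bar), the median of all genes at 0.02 (dashed line), and the lowest and highest gene of each list named. The list medians run from -0.02 for the methionine cycle, transsulfuration and betaine list to 0.11 for the folate list, and the points of all lists straddle 0.

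The promoters of Mat2b and Mthfd1 are given because this pair had the most alike pattern over the arrays, and that of Ahcy because it was the only member whose groups did not overlap. Each is the 250 bases before an annotated transcript start in RefSeq on build GRCm38.p6, printed in the direction of transcription, and capitals mark matches to the GC box GGGCGG or the CCAAT box CCAAT on either strand. Those of Mat2b and Mthfd1 precede a start that lies inside the gene's full span (chromosome 11, 40679314 to 40695203, and chromosome 12, 76254406 to 76319820).
Ahcy, chr2:155074498-155074747, minus strand: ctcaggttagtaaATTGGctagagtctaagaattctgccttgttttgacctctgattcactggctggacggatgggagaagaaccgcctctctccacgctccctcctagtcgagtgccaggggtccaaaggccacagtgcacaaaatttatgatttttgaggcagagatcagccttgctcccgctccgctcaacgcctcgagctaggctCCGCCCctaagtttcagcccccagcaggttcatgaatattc
Mat2b, chr11:40692683-40692932, minus strand: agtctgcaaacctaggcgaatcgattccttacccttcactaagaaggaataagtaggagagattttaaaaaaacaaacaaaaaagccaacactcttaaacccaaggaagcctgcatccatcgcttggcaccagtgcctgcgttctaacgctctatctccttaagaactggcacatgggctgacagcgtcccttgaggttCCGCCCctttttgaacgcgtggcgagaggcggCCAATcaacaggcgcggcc
Mthfd1, chr12:76254982-76255231, plus strand: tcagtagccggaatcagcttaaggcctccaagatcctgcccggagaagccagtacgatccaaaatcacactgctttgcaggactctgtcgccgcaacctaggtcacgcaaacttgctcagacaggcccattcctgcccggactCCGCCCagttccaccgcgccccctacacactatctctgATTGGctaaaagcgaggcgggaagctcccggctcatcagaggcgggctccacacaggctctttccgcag
All 3 windows held 1 GC box and 1 CCAAT box. Of 10 windows of the 9 genes (Mtrr has 2 starts, which overlap), 9 held a GC box and 9 a CCAAT box, those of Shmt2 holding neither, beside 32.7% and 33.8% of 32851 windows of the same length. The E-box CACGTG was found in 1, that of Cbs (6.02% of all windows), and TGATGNAA, an element of the kind bound by ATF4, in 0 (3.45%). The motifs were searched on both strands and none contains another. CG pairs numbered 9 for Ahcy, 13 for Mat2b and 15 for Mthfd1, and from 7 for Shmt2 to 30 for 1 start of Mtrr, against a median of 6 over all windows. The background windows were not matched to the member windows for CG pairs, and the GC box contains 1. A match describes letters only, and binding and methylation were not measured here.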

How the data were processed

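The authors deposited 1 table of log2 values, with 41345 probe rows and 1 column for each of 6 Affymetrix whole-transcript arrays. That the scale is log2 was inferred from the range of values. The input was 200 ng of RNA per array, per the labels' protocols. The build named in the submitters' processing notes is mm 10. Background correction, summarization and normalization are not given in the sources used here. Array medians lay between 6.55 and 6.66. Precision is limited by there being 6 arrays.

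In the platform annotation 23521 rows named 1 gene, 1814 several and 16010 none. Of the first, 23328 had an Entrez identifier in a RefSeq table of GRCm38.p6, which gave positions. Every row was fitted with limma 3.58.1 in R 4.3.3 (lmFit, eBayes, no covariate, two-sided), with Benjamini-Hochberg adjustment over all rows. Standard errors and 95% intervals use 4 residual and 2.94 prior degrees of freedom. The test was checked on simulated data. Members, lists and tests were chosen with earlier results of these data known. Named genes were the members, the closest partners in the lists, those with the smallest unadjusted p, and the 5 genes most correlated with Ahcy. As no gene of the 5 other one-carbon lists was under 0.05, those just above it are named. Alternatives were other scalings, priors, filters and weights, the replicate number as a block, another row for Ahcy and leaving out each array.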

Additional observations from a re-analysis of the deposited data

How the results depend on the processing

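No member was called under any alternative, and limma called 0 rows over the whole table under each scaling, prior, filter and weight and at an adjusted p under 0.1; leaving out 1 array gave 0 to 1 rows, the 1 row without saline array 3. Members with an unadjusted p under 0.05 numbered 1 under each scaling, prior, filter and weight, namely Ahcy, which was picked from this comparison. Such members numbered 0 to 1 when 1 array was left out. Ahcy then missed that level without ethanol array 1, 2 or 3 or saline array 1 or 3. Without saline array 1, Shmt2 met it. Members under that level numbered 0 with the other Ahcy row, an alternative chosen after seeing the data, which gave an Ahcy difference of 0.14. The median over members ran from 0.04 to 0.13 over all settings. Genes of the 5 other lists with an unadjusted p under 0.05 numbered 1 with quantile normalization, cyclic loess and array weights (Slc19a1 each time), 1 with an intensity trend (Sardh), 2 with median centring (Slc19a1 and Sardh), 2 among rows above the median brightness (Slc19a1 and Nnmt), 3 among rows naming 1 gene (those and Bhmt), and 0 to 2 leaving out 1 array, namely Bhmt2 without ethanol array 1, Mthfd2 and Nnmt without ethanol array 3, Slc19a1 without saline array 1, and Bhmt and Mat1a without saline array 3. The filters refit limma on fewer rows, and the cause of the other shifts was not tested. With the replicate number as a block, 1 member had an unadjusted p under 0.05, 0 list genes did and 0 rows were called, so it changed no call. Same-numbered arrays of the groups correlated, as deviations from group means, at 0.10, -0.06 and 0.04, so the numbers were not taken to pair them. Cbs turned positive when each array was centred on its median, which moved the all-gene median difference from 0.02 to 0.06. Leaving out 1 array turned the sign of Shmt1 (without ethanol array 1 or 3 or saline array 2 or 3), Cbs (ethanol array 3 or saline array 1) or Mtr (ethanol array 2), all small. With 3 pools a group, differences of the size seen here cannot be told from the spread between pools at this number of arrays.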

Other observations

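The 2 Ahcy rows were not alone in their disagreement about place. Of 1082 genes named by more than 1 row, 86 or 7.95% had their brightest row where none of the 10 nearest rows with a located gene named a gene of the same chromosome, and 83 of these 86 also had another row among genes of their own chromosome. For each such gene, taking the brightest row selects the one out of place. What these rows bind was not tested.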
